A study of Mus musculus with 10 samples.

Results

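The genes described here are 42 genes of the cell division cycle, taken by symbol from the deposited table of gene expression: 17 that act in DNA replication and its preparation (S phase genes) and 25 that act in chromosome segregation and division (G2 and M phase genes). They are 42 of the 25233 entries with a gene symbol, and each symbol had 1 entry. The study sequenced RNA from 5 preparations labelled hypHSC and 5 labelled qHSC, 1 library each, all sorted from the liver of C57BL/6J mice as hepatic stellate cells, the vitamin A-storing pericytes of the liver sinusoid. Mice of the hypHSC group were fed the CDAHFD, a diet low in choline and rich in fat that gives rise to steatohepatitis, for 13 weeks at an age of 19 weeks (hypHSC 1 and 2) or for 12 weeks at an age of 18 weeks (hypHSC 3, 4 and 5). Mice of the qHSC group received the standard diet and were 36 weeks old (qHSC 1, 2 and 5) or 34 weeks old (qHSC 3 and 4). The groups differ in diet, age, digestion and sorting gate at once, whose effects cannot be told apart, preparations were selected for RNA quality, and no label names the mouse behind a library, so p-values measure the spread between preparations.

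In a dividing cell, cyclin E with *Cdk2* and the E2F transcription factors switch on the genes for the replication machinery, then cyclins A and B with *Cdk1* drive entry into mitosis, where the spindle checkpoint holds the anaphase-promoting complex until every chromosome is attached. Most adult liver cells rest outside this cycle, and stellate cells and macrophages can both re-enter it after injury. The promoters of many S phase genes carry E2F sites, whereas those of many mitotic genes carry CCAAT boxes and a CHR element, bound by NF-Y and by the DREAM and MMB complexes.

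The labelled cell type was compared with marker genes first. All 12 hepatic stellate cell markers, among them *Lrat*, *Reln*, *Colec11* and *Des*, were called lower in hypHSCs (21.7% of all genes tested were), where their summed normalized counts were 7166 to 18505 against 744287 to 1388393 in qHSCs, and *Hhip* was at or near 0 in all hypHSC libraries. *Ecm1* alone gave 419223 to 911810 of the qHSC sums. Of 12 macrophage markers, 11 were called higher (background 17.8%), with sums of 1039993 to 1445160.4 in hypHSCs against 5484 to 128039 in qHSCs. *Lyz2* alone gave 740305 to 940344 of the hypHSC sums. The groups did not overlap in *Lyz2*, *Cd68*, *C1qc*, *Cd14*, *Fcgr1* and *Ptprc*. They overlapped in *Adgre1*, *Csf1r*, *C1qa*, *C1qb* and *Vsig4*. *Clec4f* was not called, with qHSC 1 (9029) and qHSC 4 (18766) above all hypHSCs (3764 to 8014) and the other qHSCs (466 to 870) below them. The expression in hypHSCs thus went against the stellate cell label, and the groups are called by their labels only. Among qHSCs, qHSC 1 and 4 had the highest macrophage sums (57480.1 and 128039). T and NK cell genes had 0 of 3 tested members called, of 10 listed. All 4 tested of 9 listed neutrophil genes and all 4 tested of 6 listed bile duct genes were called higher (background 17.8%). A gene was tested at a normalized count of 10 or more in 5 or more libraries. The hypHSCs alone could supply these, as for *Retnlg*, at 0 in all qHSCs, so these shares are description only. Of hepatocyte genes 0 of 9, and of tested erythroid genes 0 of 5, were called. Of 3 tested B cell genes 1 was called higher, and of 7 tested endothelial genes 1 was called higher and 3 lower. Libraries held 30534719 to 43283589 reads on genes with a symbol in hypHSCs and 35640104 to 47317028 in qHSCs, so that 3 reads, taken as the floor of detection, corresponded to 2.25 to 4.54 normalized counts. Mitochondrial genes took 2.21% to 12.8% of reads in hypHSCs and 1.25% to 1.61% in qHSCs. In bulk samples, fewer cells of a type and less RNA per cell cannot be told apart.

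Promoter sequences are shown first, because genes of the S phase and mitosis classes are known to carry different control elements. RefSeq promoter windows of GRCm38.p6, each of 300 bases from 250 before to 50 after a gene's start, matched 34 of the 42 genes in 35 windows (*Mcm7* has 2). *Ccne2*, *Mcm4*, *Ccna2*, *Cdc25c*, *Aurkb*, *Kif20a*, *Tpx2* and *Foxm1* had no entry. Both strands were searched for the CHR element, written as TTTGAA or TTCGAA, for the CCAAT box, written as CCAAT, and for E2F sites, written as TTTGGCGC, TTTCCCGC, TTTGCCGC or TTTCGCGC. E2F matches on opposite strands can overlap each other, as in *Mcm5* and *Mcm6*. The runs below cover 160 bases before to 30 bases after the start, read 5′ to 3′ on the strand of the gene, with matched motifs in capitals (ATTGG is CCAAT and TTCAAA is TTTGAA on the other strand). S phase genes with E2F matches come first, at chr11:98907991-98908180 (+ strand, *Cdc6*), chr8:75109349-75109538 (+ strand, *Mcm5*) and chr1:128359676-128359865 (- strand, *Mcm6*).
Cdc6: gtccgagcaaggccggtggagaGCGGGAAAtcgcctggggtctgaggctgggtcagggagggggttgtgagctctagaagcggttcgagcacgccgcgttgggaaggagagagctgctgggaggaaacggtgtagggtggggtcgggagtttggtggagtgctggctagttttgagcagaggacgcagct
Mcm5: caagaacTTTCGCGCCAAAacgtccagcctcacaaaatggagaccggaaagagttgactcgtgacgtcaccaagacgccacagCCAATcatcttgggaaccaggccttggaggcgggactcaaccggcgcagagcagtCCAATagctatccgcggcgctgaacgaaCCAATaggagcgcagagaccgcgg
Mcm6: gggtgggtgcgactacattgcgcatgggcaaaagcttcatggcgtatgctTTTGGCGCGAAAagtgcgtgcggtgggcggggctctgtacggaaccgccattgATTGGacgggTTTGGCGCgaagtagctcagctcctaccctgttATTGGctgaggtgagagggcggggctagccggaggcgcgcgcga

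The following runs belong to cyclin B2, *Cdk1* and the spindle checkpoint kinase *Ttk*, all called higher in hypHSCs, and show CHR elements with CCAAT boxes, at chr9:70421525-70421714 (- strand, *Ccnb2*), chr10:69352883-69353072 (- strand, *Cdk1*) and chr9:83834529-83834718 (+ strand, *Ttk*). In *Ccnb2* the 3 CCAAT boxes start 33 bases apart. *Cdk1* also holds an E2F match.
Ccnb2: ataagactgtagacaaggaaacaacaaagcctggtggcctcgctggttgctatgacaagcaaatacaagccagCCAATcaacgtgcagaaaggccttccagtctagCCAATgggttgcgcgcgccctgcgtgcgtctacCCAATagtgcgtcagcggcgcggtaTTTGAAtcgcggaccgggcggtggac
Cdk1: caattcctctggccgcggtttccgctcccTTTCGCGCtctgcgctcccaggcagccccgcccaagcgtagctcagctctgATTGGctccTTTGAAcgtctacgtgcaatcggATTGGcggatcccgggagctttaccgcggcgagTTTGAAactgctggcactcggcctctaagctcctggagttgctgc
Ttk: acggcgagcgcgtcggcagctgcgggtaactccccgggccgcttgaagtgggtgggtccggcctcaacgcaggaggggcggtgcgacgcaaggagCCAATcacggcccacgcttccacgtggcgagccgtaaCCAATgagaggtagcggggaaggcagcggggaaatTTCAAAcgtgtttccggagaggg

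CHR elements were in 15 of the 19 windows of G2 and M phase genes (78.9%) and in 2 of the 16 windows of S phase genes (12.5%), against 19.2% of all 32851 RefSeq windows. CCAAT boxes were in 17 of 19 (89.5%) and 10 of 16 (62.5%), against 37.4% of all windows. E2F matches were in 1 of 19 (5.26%) and 7 of 16 (43.8%), against 2.26% of all windows. A CHR element together with a CCAAT box was in 15 of the 19 windows of mitosis genes, against 7.52% of all windows. Among these, 13 of 17 windows of mitosis genes called higher in hypHSCs and 2 of 2 windows of those not called, *Bub1b* and *Plk1*, held both elements. E2F matches were in 4 of 10 windows of S phase genes called higher and in 3 of 6 windows of those not called, which belong to *Cdk2*, *Mcm3* and *Mcm7*. A match is a stretch of letters, not a measured binding site.

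**Figure D1:**
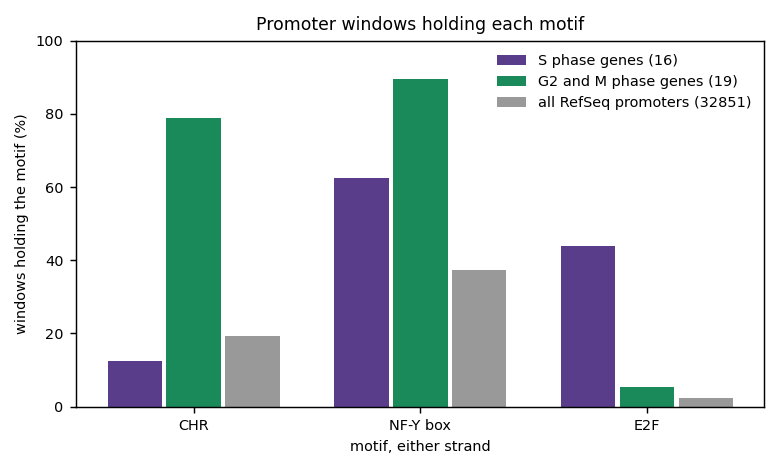
Share of promoter windows (%, 300 bases each) that hold a CHR element, a CCAAT box (labelled NF-Y box) or an E2F match on either strand, for S phase genes (16 windows), G2 and M phase genes (19) and all RefSeq windows (32851). The bars for mitosis genes are at 78.9%, 89.5% and 5.26%, those for S phase genes at 12.5%, 62.5% and 43.8%.

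Levels were compared as log2(normalized count + 1) with limma, and a gene was called when its log2 fold change was at least 1 in either direction with an adjusted p of at most 0.05 over all 14630 genes tested (adjusted p below always means this value). All 42 genes passed the filter (a normalized count of 10 or more in 5 or more libraries), and 37 of them would have passed by the 5 qHSC libraries alone. *Ccne1*, *E2f1* and *Ttk* reached 10 in 2 qHSC libraries, *Cdc25c* in 3 and *Bub1* in 4, so these genes passed only with hypHSC libraries. All of them are among the members called higher below, so the shares of members called are description only. Over all genes, 17.8% were called higher in hypHSCs and 21.7% lower, and in 17.6% every hypHSC library was above every qHSC library, in 22.0% below.

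Of the 17 S phase genes, 11 were called higher in hypHSCs (background 17.8%) and 0 lower (background 21.7%), with a median log2 fold change of 1.96 against -0.20 over all genes tested. The groups did not overlap in 9 of them (background 17.6%). Summed normalized counts of the class were 36853 ± 4750 in hypHSCs and 10831 ± 1249 in qHSCs (SD, n = 5 each), and without *Pcna*, its most abundant member, 14312 ± 2697 and 6931 ± 817. Of the 25 G2 and M phase genes, 21 were called higher (background 17.8%) and 0 lower (background 21.7%), with a median of 2.27. All 25 had a positive fold change, as did 44.0% of all genes, and in 19 the groups did not overlap (background 17.6%). Their sums were 17637 ± 2240 in hypHSCs and 3419 ± 905 in qHSCs. Both classes moved with the macrophage markers between the groups, and the part of cell type in the result was not tested. Among qHSCs the sum of G2 and M phase genes was 3888 and 3148 in qHSC 1 and 4, the libraries with the highest macrophage sums, and 2224, 3192 and 4644 in qHSC 2, 3 and 5. Without qHSC 1 and 4, 10 S phase and 21 G2 and M phase genes were called higher.

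**Figure D2:**
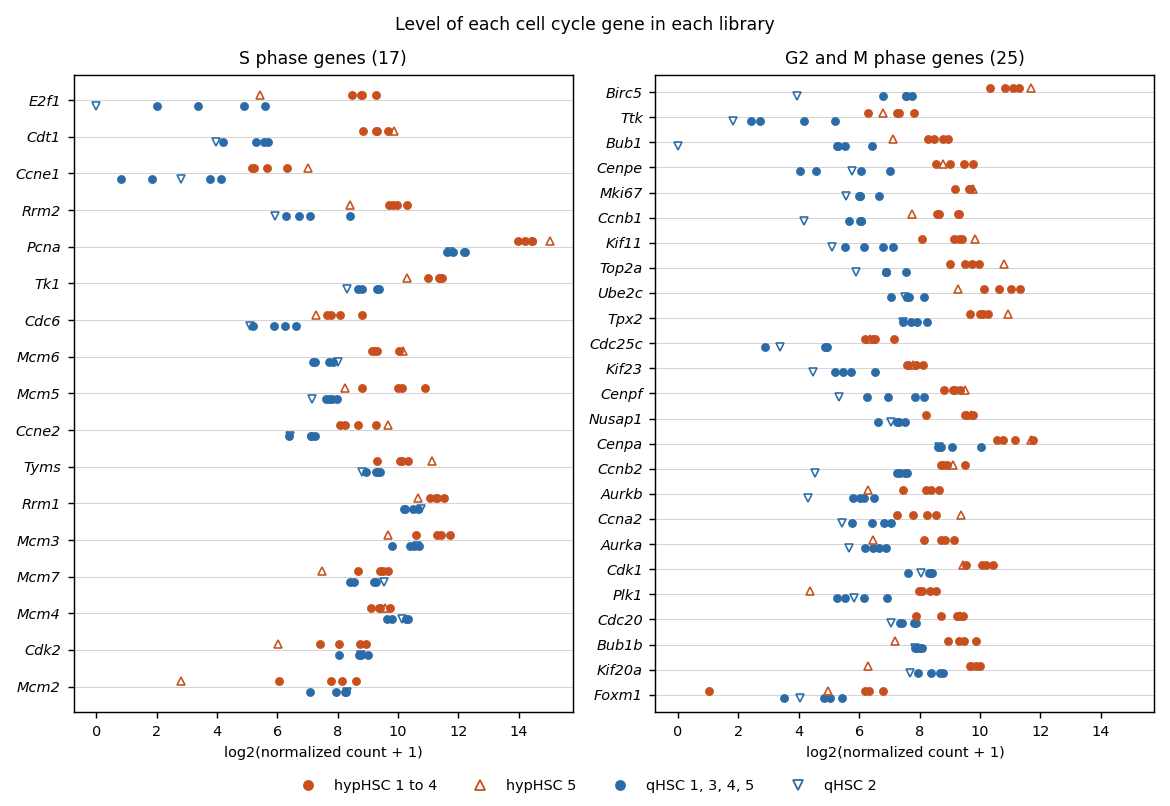
Level of the 42 genes, as log2(normalized count + 1), in each of the 5 hypHSC (orange) and 5 qHSC (blue) libraries, with S phase genes left and G2 and M phase genes right, ordered by fold change. Open triangles mark hypHSC 5, which lies below the other hypHSC libraries in 10 of 17 S phase genes, and qHSC 2, which is the lowest qHSC library in 15 of 25 G2 and M phase genes.

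The cyclins that open S phase rose. *Ccne1*, encoding cyclin E1, had normalized counts of 35.04, 36.2, 49.1, 78.7 and 129 in hypHSC 1 to 5 and 12.7, 5.96, 16.5, 2.57 and 0.75 in qHSC 1 to 5. The groups did not overlap, 2 qHSC libraries were at or under the floor, and the spread was wide in both groups (log2 fold change 3.20, SE 0.72, adjusted p = 0.00352). *Ccne2*, encoding cyclin E2, was at 271, 404, 304, 619 and 815 in hypHSCs and 149, 84.3, 137, 82.2 and 136 in qHSCs. All hypHSC libraries again lay above all qHSC libraries (log2 fold change 1.94, SE 0.36, adjusted p = 0.00103), and in both genes hypHSC 5 was the highest. *Cdk2*, the kinase that both cyclins bind, was at 168, 429, 484, 262 and 63.5 in hypHSCs and 419, 434, 264, 441 and 507 in qHSCs. Here the groups overlapped, hypHSC 5 was the lowest, and the difference did not pass the test (log2 fold change -0.84, SE 0.50, adjusted p = 0.189).

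*E2f1*, the transcription factor at chr2:154401320-154411812 (GRCm39) that activates replication genes, had the largest fold change of the S phase class. Its normalized counts were 431, 612, 448, 358 and 42.4 in hypHSCs and 28.96, 0, 9.45, 47.1 and 3 in qHSCs. It was called higher (log2 fold change 4.97, SE 1.08, adjusted p = 0.00285), but hypHSC 5 lay below qHSC 4, so the groups overlapped. The GC content of its transcript is 57.9%, and the part of GC content in the value of hypHSC 5 was not tested for this gene.

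The factors that license replication origins were called higher, but the helicase they load was not called as a whole. *Cdc6*, an ATPase that loads the helicase onto DNA, was at 269.5, 448, 218, 199 and 153 in hypHSCs and 35.3, 33.2, 97.6, 58.2 and 74.9 in qHSCs. No hypHSC library overlapped a qHSC library (log2 fold change 2.11, SE 0.41, adjusted p = 0.00154). *Cdt1*, its partner at chr8:123294754-123300293 (GRCm39), was at 613, 454, 625, 811 and 941 in hypHSCs and 50.7, 14.5, 37.8, 46.2 and 17.2 in qHSCs. The lowest hypHSC library was well above the highest qHSC library, with a ratio of means of 20.7 (log2 fold change 4.45, SE 0.41, adjusted p = 8.19e-06). *Gmnn*, which encodes the *Cdt1* inhibitor geminin and is no member of the 42, was also called higher (log2 fold change 3.57, SE 0.36, adjusted p = 1.61e-05), and the log2 ratio of *Cdt1* to *Gmnn*, each as normalized count + 1, overlapped between the groups (-1.14 to -0.28 in hypHSCs, -2.52 to -0.91 in qHSCs).

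The MCM2-7 helicase is a ring of 6 different subunits, and its genes did not move together. *Mcm5* was at 1119.8, 1913, 1010.4, 446 and 301 in hypHSCs and 194, 141, 253, 206 and 225 in qHSCs. No overlap was seen, with hypHSC 5 the lowest and hypHSC 2 the highest of the hypHSC libraries (log2 fold change 1.96, SE 0.45, adjusted p = 0.00425). *Mcm6* was at 559, 624, 591, 1038 and 1145 in hypHSCs and 210.0, 258, 151, 145 and 226 in qHSCs. It was separated as well, but here hypHSC 5 was the highest (log2 fold change 1.96, SE 0.28, adjusted p = 0.000193). *Mcm4* was at 552, 852, 666, 679.8 and 758 in hypHSCs and 1216, 1121, 799.9, 880.5 and 1277 in qHSCs. Only hypHSC 2 reached into the qHSC range, and the difference passed the adjusted p but not the fold threshold (log2 fold change -0.58, SE 0.20, adjusted p = 0.0287). *Mcm2* was at 219.6, 387, 283, 65.04 and 6.05 in hypHSCs and 310.4, 315, 133, 301 and 244 in qHSCs. Its hypHSC libraries ran from above every qHSC library to near the floor, and it was not called (log2 fold change -1.29, SE 0.94, adjusted p = 0.281). *Mcm3*, the most abundant subunit per length in 7 of the 10 libraries, was at 2527, 3350.1, 2772, 1539 and 811 in hypHSCs and 1471, 1592, 899, 1655 and 1337 in qHSCs. The groups overlapped because of hypHSC 4 and 5 (log2 fold change 0.53, SE 0.36, adjusted p = 0.246). *Mcm7* was at 817, 721, 681, 411 and 175 in hypHSCs and 616, 732, 340.1, 369.7 and 591 in qHSCs. The fold change was near 0 (log2 fold change -0.04, SE 0.42, adjusted p = 0.942), and 39.0% of its 59-base stretches, the read length, are also found in other genes.

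Per length, as FPKM recomputed from the recovered reads, the highest of the 6 subunits exceeded the lowest 5.37 to 18.1 times in hypHSC 1 to 4 and 215 times in hypHSC 5, where *Mcm2* was at 0.0375 FPKM. In qHSCs the ratio was 4.19 to 9.54. The subunit with the lowest FPKM was *Mcm2* in all 5 hypHSC libraries, whereas it was *Mcm5* in 4 of the 5 qHSC libraries. The log2 ratio of *Mcm6* to *Mcm4*, each as normalized count + 1, was -0.45 to 0.61 in hypHSCs and -2.59 to -2.11 in qHSCs, and that of *Mcm5* to *Mcm4* was -1.33 to 1.17 and -2.98 to -1.66. Neither ratio overlapped between the groups, and both were chosen after the values were seen and were not tested.

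**Figure D3:**
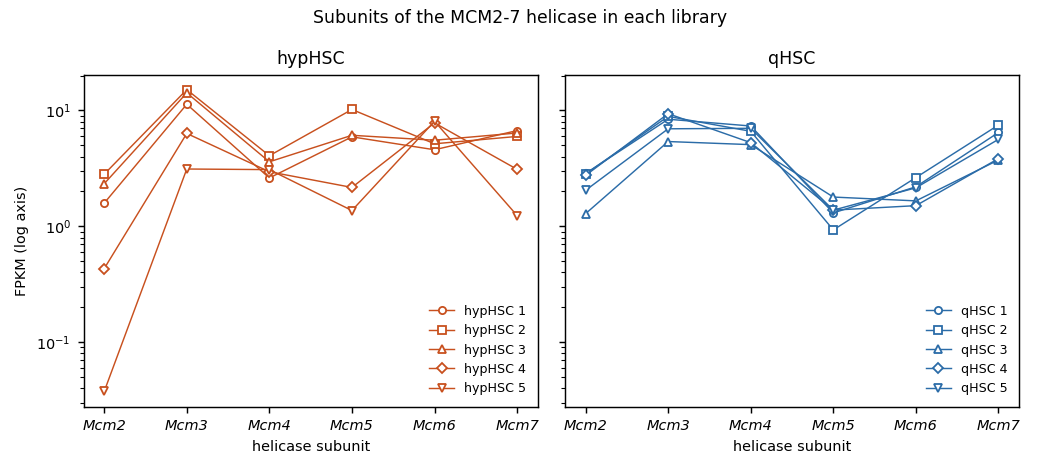
FPKM (log axis) of the 6 MCM2-7 subunits in each hypHSC library (left) and each qHSC library (right), 1 line per library. The qHSC lines run close together, with *Mcm5* lowest in 4 of 5, whereas the hypHSC lines spread at *Mcm2*, which falls to 0.0375 FPKM in hypHSC 5.

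*Pcna*, the sliding clamp of the replicative polymerases, was the most abundant of the 42 genes per length in both groups (348 ± 67.0 FPKM in hypHSCs, 78.2 ± 13.0 in qHSCs). Its normalized counts were 22026, 18863, 16041, 22326 and 33449 in hypHSCs and 3148, 3359.6, 3600.3, 4646 and 4744 in qHSCs. The groups were far apart (log2 fold change 2.51, SE 0.22, adjusted p = 4.84e-06). Its counts are uncertain in part, since 53.4% of its 59-base stretches also occur in other entries, the pseudogene *Pcna-ps2* and the overlapping *AV099323* among them, and strand was not kept.

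Of the genes that supply nucleotides, *Rrm2*, the cell cycle-regulated subunit of ribonucleotide reductase, was at 831, 1244, 911, 1007 and 342 in hypHSCs and 134, 59.6, 105, 77.9 and 336 in qHSCs. There was no overlap, although hypHSC 5 and qHSC 5 nearly met (log2 fold change 2.76, SE 0.48, adjusted p = 0.000731), and 37.1% of its exon bases are overlapped by another gene. *Rrm1*, the large subunit, which is longer-lived as a protein, was at 2143, 2929.8, 2523, 2466 and 1626 in hypHSCs and 1187, 1739.9, 1159, 1447 and 1606 in qHSCs. It passed the adjusted p but not the fold threshold, with hypHSC 5 below qHSC 2 (log2 fold change 0.70, SE 0.20, adjusted p = 0.0121). *Tk1*, the thymidine kinase of S phase, was at 2618, 2696, 2800.0, 2040.5 and 1254 in hypHSCs and 665, 313, 449.6, 624 and 407 in qHSCs. All hypHSC libraries were above all qHSC libraries (log2 fold change 2.21, SE 0.28, adjusted p = 7.98e-05). *Tyms*, thymidylate synthase, was at 1066, 1114, 637, 1285 and 2234 in hypHSCs and 494, 449, 679, 614 and 652 in qHSCs. It lay just past the fold threshold with hypHSC 3 inside the qHSC range (log2 fold change 1.03, SE 0.30, adjusted p = 0.0139), and of 10 fits, each without another library, 6 called it: the call was lost without hypHSC 4 (0.998), hypHSC 5 (0.80), qHSC 1 (0.98) or qHSC 2 (0.95).

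**Figure D4:**
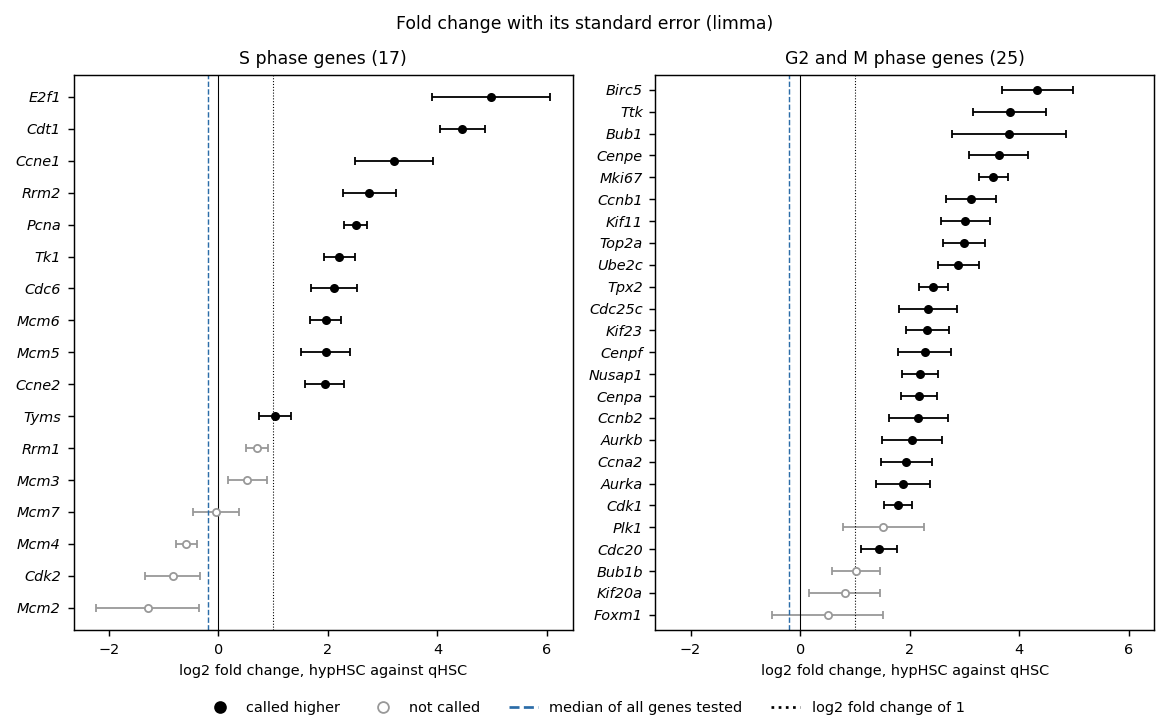
log2 fold change of each gene in hypHSCs against qHSCs with its standard error (limma), for S phase genes (left) and G2 and M phase genes (right). Filled points passed both thresholds, open points did not, the dotted line marks a log2 fold change of 1, and the dashed line marks the median of all genes tested (-0.20), above which lie 14 of 17 S phase and all 25 G2 and M phase genes.

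Among the G2 and M phase genes, those of proliferating nuclei and chromosome condensation separated the groups. *Mki67*, at chr7:135291513-135318147 (GRCm39), encodes the Ki-67 protein that coats mitotic chromosomes and serves as a proliferation marker. Its normalized counts were 823, 793, 579, 809.9 and 873 in hypHSCs and 64.3, 46.01, 64.6, 63.3 and 100.4 in qHSCs. The coefficient of variation was 14.7% in hypHSCs and 29.4% in qHSCs, and the adjusted p was the lowest of the 42 genes (log2 fold change 3.53, SE 0.26, adjusted p = 1.76e-06). Per length its level stayed low, at 1.79 ± 0.15 FPKM in hypHSCs and 0.20 ± 0.05 in qHSCs. *Top2a*, the topoisomerase that untangles sister chromatids, was at 996, 729, 515, 849.8 and 1798 in hypHSCs and 117, 57.9, 117, 118 and 188 in qHSCs. Again no values overlapped, and hypHSC 5 was the highest (log2 fold change 2.99, SE 0.38, adjusted p = 8.15e-05).

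The mitotic cyclins and their kinase rose. *Ccna2*, encoding cyclin A2, was at 371, 300.2, 151, 221 and 669 in hypHSCs and 84.2, 42.6, 113, 53.05 and 133 in qHSCs. The lowest hypHSC library, hypHSC 3, lay just above the highest qHSC library (log2 fold change 1.94, SE 0.46, adjusted p = 0.00486). *Ccnb1*, encoding cyclin B1, was at 399, 616, 385, 625 and 216 in hypHSCs and 65.2, 17.04, 66.1, 49.6 and 63.7 in qHSCs. It was separated, with qHSC 2 far under the other qHSCs (log2 fold change 3.12, SE 0.45, adjusted p = 0.000190), and 38.9% of its 59-base stretches are shared with pseudogenes such as *Ccnb1-ps*. *Ccnb2*, encoding cyclin B2, was at 484, 416, 442, 721 and 549 in hypHSCs and 162, 22.1, 191, 151 and 183 in qHSCs. The same library, qHSC 2, was again the lowest (log2 fold change 2.16, SE 0.54, adjusted p = 0.00674). *Cdk1*, the kinase of both cyclins B, was at 1381, 1166, 739, 1071 and 694 in hypHSCs and 340.3, 262, 333, 195 and 318 in qHSCs. The fold change was among the smaller of those called and the groups did not overlap (log2 fold change 1.78, SE 0.26, adjusted p = 0.000183). *Cdc25c*, the phosphatase that activates *Cdk1*, was at 71.4, 142, 90.6, 87.1 and 80.2 in hypHSCs and 29.9, 9.37, 6.30, 29.1 and 28.5 in qHSCs. All hypHSC libraries were above the qHSC libraries at a low level (log2 fold change 2.34, SE 0.52, adjusted p = 0.00349). *Foxm1*, the transcription factor of G2 genes, was at 72.8, 109.7, 79.8, 1.05 and 30.2 in hypHSCs and 42.5, 15.3, 31.5, 10.3 and 27.7 in qHSCs. It was not called and its groups overlapped, hypHSC 4 having 1 read (log2 fold change 0.50, SE 1.01, adjusted p = 0.707). The symbol *Foxm1* shares its entry with *Tex52*, so these counts are not of *Foxm1* alone.

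The kinases of mitosis were less even. *Aurka*, Aurora A of the spindle poles, was at 457, 560.1, 417, 280.1 and 87.7 in hypHSCs and 118, 49.4, 87.4, 99.3 and 72.7 in qHSCs. It was called although hypHSC 5 fell within the qHSC range (log2 fold change 1.88, SE 0.49, adjusted p = 0.00844), and 43.2% of its exon bases are overlapped by *Cstf1*, *Fam210b* and another gene. *Aurkb*, Aurora B of the chromosomal passenger complex, was at 333, 398, 299, 174 and 77.1 in hypHSCs and 64.3, 18.7, 54.3, 70.2 and 89.2 in qHSCs. Only hypHSC 5 overlapped the qHSCs (log2 fold change 2.04, SE 0.54, adjusted p = 0.00929). *Plk1*, polo-like kinase 1, which acts from mitotic entry to exit, was at 268, 321, 374, 253 and 19.7 in hypHSCs and 70.6, 55.4, 45.7, 37.6 and 119 in qHSCs. In hypHSC 1 to 4 it was above every qHSC library, in hypHSC 5 below every one, and it was not called (log2 fold change 1.52, SE 0.75, adjusted p = 0.114). Without hypHSC 5 the log2 fold change was 2.29, and the gene was called.

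*Birc5* had the largest fold change of the class. This gene, at chr11:117740063-117746581 (GRCm39), encodes survivin, the passenger complex subunit that brings Aurora B to the centromere. Its normalized counts were 2528, 1832, 1288, 2204 and 3327 in hypHSCs and 188, 14.5, 109, 188 and 217 in qHSCs. Every hypHSC library exceeded every qHSC library, with a ratio of means of 15.6, and qHSC 2 was the lowest (log2 fold change 4.33, SE 0.65, adjusted p = 0.000250). Per length it was the second most abundant of the 42 genes in hypHSCs (53.3 ± 13.7 FPKM) and the eleventh in qHSCs (4.43 ± 2.46).

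Of the 3 spindle checkpoint genes among the members, *Bub1* and *Ttk* were called higher and *Bub1b* was not, and *Cdc20* and *Ube2c* of the anaphase-promoting complex were called higher. *Bub1*, a checkpoint kinase of the kinetochore, was at 441, 353, 308, 488 and 139 in hypHSCs and 85.1, 0, 37.8, 38.5 and 44.96 in qHSCs. The groups did not overlap, and qHSC 2 had no read (log2 fold change 3.81, SE 1.04, adjusted p = 0.0107). *Ttk*, the kinase Mps1 that starts the checkpoint, was at 151, 226, 160.5, 76.6 and 109 in hypHSCs and 17.2, 2.56, 5.51, 4.28 and 35.97 in qHSCs. The groups did not overlap, and qHSC 2 was at the floor (log2 fold change 3.83, SE 0.67, adjusted p = 0.000693). *Bub1b*, encoding the checkpoint protein BubR1, was at 713, 933, 635, 495 and 144 in hypHSCs and 255, 232, 228, 241 and 268 in qHSCs. In hypHSC 1 to 4 it was above every qHSC library, hypHSC 5 was below, and the gene missed the adjusted p (log2 fold change 1.02, SE 0.43, adjusted p = 0.0729), with 1.46 and a call when hypHSC 5 was left out. *Cdc20*, the activator of the anaphase-promoting complex that the checkpoint holds back, was at 420.4, 696, 237, 607 and 653 in hypHSCs and 233, 132, 171, 161 and 223 in qHSCs. The lowest hypHSC library, hypHSC 3, was just above qHSC 1 (log2 fold change 1.43, SE 0.33, adjusted p = 0.00408). *Ube2c*, the ubiquitin-conjugating enzyme of that complex, was at 2599, 2108, 1112, 1574 and 613 in hypHSCs and 283, 184, 189, 132 and 200.1 in qHSCs. The groups were far apart in all libraries, with hypHSC 5 the lowest of its group (log2 fold change 2.89, SE 0.38, adjusted p = 9.19e-05).

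Genes of the centromere and spindle were called higher apart from *Kif20a*. *Cenpa*, the histone H3 variant of the centromere, was at 1513, 1726, 2269, 3435 and 3306 in hypHSCs and 386, 402, 416, 534 and 1042 in qHSCs. The groups did not overlap, and qHSC 5 stood above the other qHSCs (log2 fold change 2.17, SE 0.33, adjusted p = 0.000262). *Cenpe*, the kinesin that moves chromosomes to the spindle equator, was at 881, 517, 373, 705 and 439 in hypHSCs and 129, 53.7, 66.1, 15.4 and 22.5 in qHSCs. The lowest hypHSC library was far above the highest qHSC library (log2 fold change 3.63, SE 0.54, adjusted p = 0.000229). *Cenpf*, a large kinetochore protein, was at 643, 547, 451, 574 and 723 in hypHSCs and 229.9, 39.2, 75.6, 123 and 285 in qHSCs. The groups were separate, and relative to their mean the qHSCs differed among themselves more than the hypHSCs (log2 fold change 2.27, SE 0.49, adjusted p = 0.00263).

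*Kif11*, the Eg5 motor that pushes the spindle poles apart, was at 271, 639.8, 559, 672 and 914 in hypHSCs and 45.2, 33.2, 109, 137 and 71.2 in qHSCs. The groups were separate and hypHSC 1 was the lowest of its group (log2 fold change 3.01, SE 0.45, adjusted p = 0.000239). *Kif23*, the motor of the central spindle in cytokinesis, was at 237, 194, 279, 189 and 219 in hypHSCs and 52.5, 21.3, 35.4, 90.7 and 42.7 in qHSCs. The hypHSC values were close together and all above the qHSCs (log2 fold change 2.32, SE 0.39, adjusted p = 0.000584). *Kif20a*, another motor of cytokinesis, was at 815, 942, 833, 1025 and 77.1 in hypHSCs and 435, 206, 247, 335 and 407 in qHSCs. In hypHSC 1 to 4 it was above every qHSC library, in hypHSC 5 below every one, and it was not called (log2 fold change 0.81, SE 0.64, adjusted p = 0.320). *Brd8* and *Cdc23* overlap 66.9% of its exon bases, so its count is uncertain, and without hypHSC 5 it was called at 1.52.

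The last members of the class bind microtubules. *Nusap1*, which bundles spindle microtubules, was at 747, 724, 296, 881 and 826 in hypHSCs and 153, 131, 183, 96.7 and 160.3 in qHSCs. Even hypHSC 3, far under the other hypHSCs, was above the qHSCs (log2 fold change 2.19, SE 0.33, adjusted p = 0.000249). *Tpx2*, the activator of Aurora A on the spindle, was at 1224, 1097, 812, 1019 and 1963 in hypHSCs and 238, 176, 212, 175 and 301 in qHSCs. All hypHSC libraries were above all qHSC libraries (log2 fold change 2.43, SE 0.27, adjusted p = 2.70e-05).

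By library, hypHSC 5 departed from the rest of its group. In hypHSC 1 to 4, 24 of 25 G2 and M phase genes and 11 of 17 S phase genes were above every qHSC library (background 21.3%). In hypHSC 5, 19 of 25 and 10 of 17 were above every qHSC library (background 35.3%), and 3 and 5 were below every one (background 47.2%). It was the lowest hypHSC library for 19 of the 42 genes and the highest for 13, shares near those over all genes tested (38.1% and 27.7%). The departure of hypHSC 5 from the median of hypHSC 1 to 4 fell with the GC content of the transcript, with r = -0.42 over the 42 genes and r = -0.30 over 14034 genes, a correlation across genes of the same libraries, which are not independent. The same measure over the 42 genes was of similar size in other libraries, each against the rest of its group: r was -0.35 in hypHSC 4, 0.37 in hypHSC 3 and -0.39 in qHSC 5, and over all genes -0.18, 0.15 and -0.04. The members with the largest departures were *Mcm2*, *Plk1*, *Kif20a* and *E2f1*. This library also had the fewest genes with a read (14028, against 14949 to 16634 in the other hypHSCs), and the part of GC content in these values was not tested beyond the corrected fit, in which 10 S phase and 21 G2 and M phase genes were called higher.

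**Figure D5:**
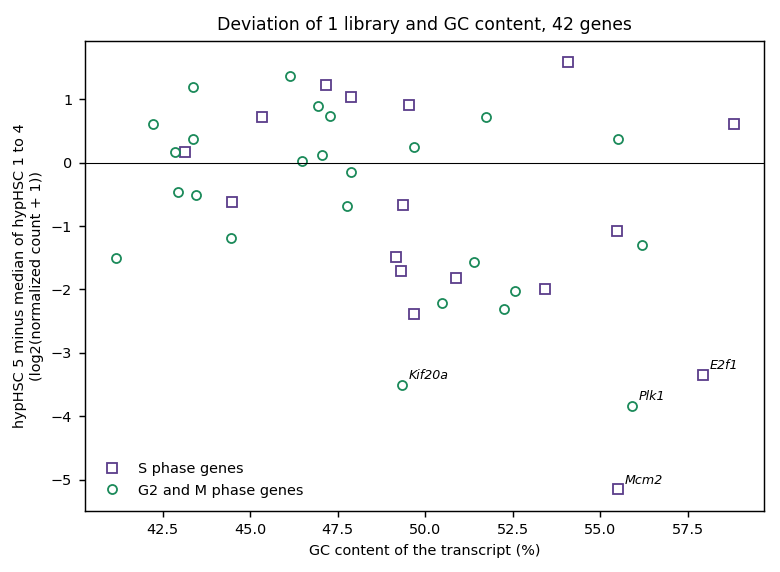
Departure of hypHSC 5 from the median of hypHSC 1 to 4, in log2(normalized count + 1), against the GC content of the transcript (%), for the 17 S phase genes (squares) and 25 G2 and M phase genes (circles). Values fall with GC content (r = -0.42 over 42 genes), and *Mcm2* at -5.15 and *Plk1* at -3.83 lie lowest.

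Among qHSCs, qHSC 2 was the lowest for 15 of 25 G2 and M phase genes and the highest for 0 of them, and qHSC 5 was the highest for 11 and the lowest for 0, whereas over all genes qHSC 2 was the lowest for 19.3% and qHSC 5 the highest for 23.95%. In qHSC 1 to 5 the sums of G2 and M phase genes were 3888, 2224, 3192, 3148 and 4644. The macrophage sums were 57480.1, 5484, 10107, 128039 and 9233 in the same order. The part of cell type in this spread was not tested. The coefficient of variation of the S phase genes had a median of 46.2% in hypHSCs and 27.2% in qHSCs, and that of the G2 and M phase genes 37.9% and 44.98%, beside 47.1% and 23.5% over all genes.

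Diet time split the hypHSCs into 2 libraries at 13 weeks and 3 at 12 weeks. Both 13-week libraries were above all 12-week libraries for *Cdc6*, *Mcm5* and *Mcm7* of the S phase class and for *Cdk1*, *Aurka*, *Aurkb*, *Bub1b* and *Ube2c* of the G2 and M phase class, 8 of 42 (15.6% of all genes). *Ccne1*, *Cdt1* and *Cenpa*, 3 of 42 (6.34% of all genes), were below in both. This split was not tested, and hypHSC 5 is 1 of the 3 libraries at 12 weeks.

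The other genes of the cycle gave a similar picture for S phase and a more mixed one for mitosis. Of 32 tested further S phase genes of a list of 33 (*E2f8* did not pass the filter), 22 were called higher (background 17.8%) and 0 lower, with a median log2 fold change of 1.499. In all these further lists the hypHSCs alone could bring a gene past the filter, so the shares called are description only. Of the 33, 32 were above the floor in all hypHSC libraries and 27 in all qHSC libraries. The largest were *Clspn*, the claspin of the replication checkpoint (log2 fold change 3.85, SE 0.77, adjusted p = 0.00167), *Gmnn*, *Dscc1*, which acts in sister chromatid cohesion (log2 fold change 3.46, SE 0.81, adjusted p = 0.00447), and *Chaf1b*, a histone chaperone subunit (log2 fold change 3.38, SE 0.51, adjusted p = 0.000259). Of 35 further G2 and M phase genes, 19 were called higher and 5 lower (background 21.7%), with a median of 1.48. The largest rises were *Gas2l3*, a cytoskeletal linker of the central spindle (log2 fold change 5.90, SE 0.34, adjusted p = 2.85e-07), *Ndc80* of the outer kinetochore (log2 fold change 3.62, SE 0.70, adjusted p = 0.00136), *Cdca3* (log2 fold change 3.57, SE 0.44, adjusted p = 6.84e-05) and *Dlgap5* of the spindle (log2 fold change 3.39, SE 0.37, adjusted p = 2.68e-05). The genes that fell were *Hjurp*, the chaperone of *Cenpa* (log2 fold change -1.72, SE 0.43, adjusted p = 0.00708), whose symbol shares its entry with another, *Cbx5*, the heterochromatin protein HP1α (log2 fold change -1.60, SE 0.26, adjusted p = 0.000396), *Anln*, the anillin of the contractile ring (log2 fold change -1.51, SE 0.30, adjusted p = 0.00150), *Cks2*, a Cdk-binding subunit (log2 fold change -1.47, SE 0.14, adjusted p = 1.15e-05), and *Lbr*, the lamin B receptor (log2 fold change -1.35), named as the fifth of a count of 5. Other genes overlap 44.7% of the exon bases of *Cks2*, 30.2% of *Hjurp* and 26.9% of *Lbr*, so these counts are uncertain in part.

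Of 17 genes of the E2F family, the RB family and the DREAM complex, 5 were called higher (29.4%, background 17.8%) and 2 lower (11.8%, background 21.7%). Here too the hypHSCs alone could bring a gene past the filter, so these shares are description only. *E2f2* (log2 fold change 4.21, SE 0.75, adjusted p = 0.000793), *Mybl2*, the B-Myb subunit of MMB (log2 fold change 3.92, SE 0.95, adjusted p = 0.00557), *E2f3* (log2 fold change 2.93, SE 0.51, adjusted p = 0.000697) and *E2f7* (log2 fold change 2.73, SE 0.74, adjusted p = 0.0104) rose most, followed by *Rb1* at 1.07, named as the fifth of 5. The *E2f7* protein is a repressor, whereas *E2f2* and *E2f3*, like *E2f1*, are activators. *Lin52* (log2 fold change -1.88, SE 0.37, adjusted p = 0.00145) and *Rbbp4* (log2 fold change -1.20, SE 0.20, adjusted p = 0.000442), both subunits of the core shared by DREAM and MMB, fell. *Sync* overlaps 53.9% of the exon bases of *Rbbp4*, and strand was not kept, so the *Rbbp4* count is uncertain. The repressor *E2f4* (-0.20) and the pocket protein genes *Rbl1* (0.68) and *Rbl2* (-0.54) were not called, and these were named after their values were seen. Other genes overlap 44.0% of the exon bases of *Rbl2*, so its count is uncertain in part.

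Of 11 tested genes that control G1, out of 12 listed (*Cdkn2a* did not pass the filter), 3 were called higher (27.3%, background 17.8%) and 4 lower (36.4%, background 21.7%). Either group alone could bring a gene past the filter, so these shares are description only. *Cdkn1a*, encoding the Cdk inhibitor p21, was at 12532, 15005, 13361, 20690.3 and 18405 in hypHSCs and 2192, 1668, 1138, 3390.2 and 3046 in qHSCs. It was separated between the groups (log2 fold change 2.89, SE 0.29, adjusted p = 1.56e-05), so a gene of cycle arrest was higher in the same libraries as the genes of S phase and mitosis. *Cdkn1c*, encoding the inhibitor p57 (log2 fold change 2.11, SE 0.57, adjusted p = 0.0100), and *Cdk6*, a G1 kinase (log2 fold change 1.39, SE 0.46, adjusted p = 0.0266), were also called higher. *Ccnd2*, encoding cyclin D2, was at 1145, 981, 629.5, 345 and 216 in hypHSCs and 12095, 12535, 9509.8, 8956 and 8849.8 in qHSCs. It had the largest fall of the list (log2 fold change -4.21, SE 0.41, adjusted p = 1.19e-05), and *Ccnd3* (log2 fold change -1.65, SE 0.33, adjusted p = 0.00160), *Cdkn2c* (-1.53) and *Cdkn2d* (-1.49) were called lower too. Other genes overlap 61.0% of the exon bases of *Ccnd1*, 30.5% of *Cdkn1c* and 28.9% of *Ccnd3*, so these counts are uncertain in part. Cyclin D1 (*Ccnd1*, -1.52 with SE 1.09) and the inhibitor p27 (*Cdkn1b*, -0.24) were not called, and were likewise named after their values were seen.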

How the data were processed

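RNA sequencing was compared between 5 hypHSC and 5 qHSC libraries, grouped by their titles. Deposited was a signal for each gene, the normalized count: the authors mapped 59-base read pairs to mm39 (GRCm39) with STAR (2.7.5a), counted them without strand with featureCounts (Subread 1.5.0) and divided the counts by DESeq2 size factors. Whole reads were recovered from 100% of values (within 0.02 of a whole number) and used for depth, FPKM, DESeq2 and edgeR. FPKM used the length of the canonical GENCODE transcript.

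The 42 members and all gene lists were chosen with earlier results of these data known. Of 62322 entries, the 37089 without a symbol, which held 8.98% to 29.1% of reads, were left out. The 14630 genes that reached a normalized count of 10 in 5 or more libraries were tested on log2(normalized count + 1) with limma 3.58.1 in R 4.3.3 (lmFit, eBayes with trend), with Benjamini-Hochberg adjustment. A fold change is on this scale and understates that of low genes. SDs are over 5 libraries, SEs are those of limma, and detection limits cover counting error only. All members are named. Per-library values are given for those called and the 4 most abundant of each class, and, beyond that rule, for the others too. Of other lists, up to 4 called genes a direction are named by size of change.

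Alternatives changed the pseudocount, filter, scaling (same total, upper quartile, TMM, or *Hprt*, *Pgk1* and *Actb*), tool (DESeq2 1.42.0, edgeR 4.0.16), robustness, replicate block or libraries. Leaving out qHSC 1 and 4, hypHSC at 13 weeks only and a GC correction (lowess, span 0.3) were added after the data were seen. The steps were tested on simulated data. Motifs were searched in RefSeq promoter windows (GRCm38.p6), and gene positions are in GRCm39.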

Additional observations from a re-analysis of the deposited data

Results flagged for a closer look

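In 9 of 84 groups (42 genes, 2 groups of 5 libraries each) 1 library stood apart from the other 4 on the log2 scale by Dixon's 95% criterion for 5 values, where chance gives about 1 in 20 groups, or 4.2 of 84. Libraries are shared between genes, so these flags are not independent. In hypHSC 5, *E2f1* was at 42.35 normalized counts against 358 to 612 in the other hypHSCs. *Plk1* was at 19.66 there against 253 to 374, and *Kif20a* was at 77.14 against 815 to 1025. In hypHSC 3, the proliferation marker *Mki67* was at 578.79 against 793 to 873, and *Nusap1* was at 296.05 against 724 to 881.

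The other 4 flags fell on qHSC 2, all in G2 and M phase genes. *Ccnb1* was at 17.04 against 49.6 to 66.1 in the other qHSCs, and *Ccnb2* was at 22.15 against 151 to 191. *Birc5* was at 14.48 against 109 to 217. *Bub1* was at 0 against 37.8 to 85.1, which at 3 reads allows up to 2.56 normalized counts in this library. In all 9 cases the flagged library was the lowest of its group.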

How the results depend on the processing

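Of the 32 members called higher, 29 were tested under all 26 alternative settings, and 20 of these kept their direction and call in each. *Ccne1*, *Cdc25c* and *Ttk* fell under the filter on a mean of 100. *Cdc25c* and *Ttk* kept their calls in the other settings. No member was called lower except under scaling to the reference genes *Hprt*, *Pgk1* and *Actb*. That scaling moved the median of all genes from -0.20 to -1.12. Relative to the median of all genes, the S phase median was 2.16 and that of G2 and M phase genes 2.47, against 2.15 and 2.46 under it. A change of scaling shifts all genes by nearly the same amount, so these differences could hardly change, and nothing is concluded from them. Under the reference gene scaling, S phase members called lower were 3 (*Cdk2*, *Mcm2* and *Mcm4*), 15 G2 and M phase members were called higher, S phase companion genes were 8 higher and 5 lower, 12 G2 and M phase companions were called higher, and over all genes 1472 were higher and 6989 lower. *Mcm3* (-0.41), *Rrm1* (-0.24), *Kif20a* (-0.12) and *Foxm1* (-0.38) changed sign.

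S phase companions called lower were 4 at the same total of reads and 1 with hypHSCs at 12 weeks only, against 0. The sign of *Mcm7*, near 0, turned at the upper quartile (0.081), with DESeq2 (0.13), edgeR (0.13), the GC correction (0.037) and 13 weeks only (0.60), and ran from -0.22 to 0.33 when 1 library was left out. At 13 weeks only, *Mcm2* was at 0.23, and at 12 weeks only, *Foxm1* was at -0.45. Neither gene was called in these fits. The causes of these changes were not tested.

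With 1 library left out, 10 to 11 S phase and 21 to 24 G2 and M phase members were called higher. *Plk1* and *Bub1b* were called by DESeq2 and edgeR, *Kif20a* by DESeq2, and *Plk1*, *Bub1b*, *Kif20a*, *Mcm3* and *Foxm1* at 13 weeks only. Calls were lost at 13 weeks only for *Ccne1* (2.53), *Ccnb2* (1.97) and *Tyms* (0.93), and at 12 weeks only for *Aurka* (1.40), *Aurkb* (1.57) and *Bub1* (3.61). Same-numbered libraries deviated together little (r = 0.01 to 0.13, over 0.1 for 1 of 5 numbers), so the numbers were not taken to pair them. With the replicate block, 11 S phase and 21 G2 and M phase members were called higher, as without it. Depth limits the lowest values: 3 reads or fewer were found for *Ccne1*, *E2f1*, *Bub1*, *Ttk* or *Foxm1* in single libraries. The 2 hypHSCs at 13 weeks and 3 at 12 weeks are too few for a test of diet time.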
